A study of Mus musculus with 20 samples.

Results

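The genes described here serve the folding of proteins in the endoplasmic reticulum and the unfolded protein response, in mouse plantaris muscle under mechanical overload (MOV). They were chosen by name, as 33 genes of this pathway, when earlier results of these data were known. The array annotation paired a probe set with 31 of them, out of 19505 genes measured. Pdia4 and Manf had no annotated probe set and were not analysed here.

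Female Pax7-DTA mice aged 5 months were used. All of them carried Pax7CreER/+ and Rosa26DTA/+, so that tamoxifen switches on diphtheria toxin A in cells that express Pax7, the satellite cells. They received tamoxifen (SC-) or vehicle (SC+) for 5 days and, after a washout of 2 weeks, sham surgery or synergist ablation, in which muscles that share the work of the plantaris are cut away. The plantaris was collected at days 1, 3, 5 and 7 of MOV. This gave 10 groups of 2 arrays (SC+ and SC-, each as sham and at 4 days), and each array held RNA pooled from 2 or 3 mice. No group received tamoxifen without the toxin allele, so the loss of satellite cells and the drug itself cannot be told apart.

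Proteins bound for the membrane or the outside of the cell fold in the endoplasmic reticulum, with the help of chaperones such as BiP (Hspa5), of lectins that hold sugar-bearing proteins, and of isomerases that form disulfide bonds. When unfolded protein builds up, 3 sensors (IRE1, PERK and ATF6) start a transcriptional programme through the factors XBP1, ATF4 and ATF6. The programme raises chaperones, widens the route into and out of the compartment, and feeds misfolded proteins to the proteasome. Muscle fibres hold a specialised form of this compartment, the sarcoplasmic reticulum, which stores calcium, while fibroblasts use the classical form to make collagen.

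The promoters of many of these genes carry short motifs that the 3 factors bind. In 300-base windows from RefSeq (GRCm38.p6, 250 bases before to 50 after a start site of the gene), found for 27 of the 31 genes, 4 motifs were searched on both strands. Only exact matches to the letters were counted, with N as any base. The first was ERSE, the endoplasmic reticulum stress element, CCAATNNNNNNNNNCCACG, which ATF6 and XBP1 bind together with NF-Y. It was in 9 of the 27 (33.3%) and in 0.137% of 27025 genes with a window. The second was ERSE-II, ATTGGNCCACG, in 2 of the 27 (7.41%) and in 0.0444% of genes. The third was UPRE, TGACGTGG, a site of XBP1, in 1 of the 27 (3.7%) and in 0.714% of genes. The last was CARE, TGATGNAA, an amino acid response element bound by ATF4, in 3 of the 27 (11.1%) and in 4.51% of genes. ERSE-II shares the letters CCACG with ERSE, but none of the 27 promoters held both. The genes were chosen for this pathway, so these shares only describe them.

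The ERSE matches are shown because the genes that hold them include Pdia6, Hspa5 and Calr, which had some of the largest changes under MOV. The capitals mark the fixed letters of the motif, 4 bases on each side are given, and the sign is the strand that is printed.
Hspa5, chr2:34772021-34772047 (+): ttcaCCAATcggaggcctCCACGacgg
Hsp90b1, chr10:86705634-86705660 (-): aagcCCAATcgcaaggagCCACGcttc
Hsp90b1, chr10:86705529-86705555 (+): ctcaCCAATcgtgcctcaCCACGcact
Calr, chr8:84847071-84847097 (+): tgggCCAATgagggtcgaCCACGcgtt
Canx, chr11:50325796-50325822 (-): ttgaCCAATcaccacgctCCACGaaga
Pdia6, chr12:17266487-17266513 (+): gagaCCAATgaaaggcggCCACGgcgt
Dnajc3, chr14:118937823-118937849 (+): acaaCCAATcagcgccaaCCACGaccc
Creld2, chr15:88819516-88819542 (-): tggaCCAATtgaggctcgCCACGagaa
Syvn1, chr19:6046528-6046554 (+): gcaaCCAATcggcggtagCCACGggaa
Derl3, chr10:75893238-75893264 (-): ctagCCAATggggaagtcCCACGgtag
The other motifs are shown for Sec24d, whose rise was the second largest at day 7, for the genes with ERSE-II, and for the genes with CARE. Of the genes with CARE, 0 rose at day 1. The Sec24d match lies before a start site inside the gene, which begins at base 123264801 of chromosome 3.
Dnajb11, ERSE-II, chr16:22857848-22857866 (+): ggcgATTGGCCCACGcctg
Herpud1, ERSE-II, chr8:94386373-94386391 (+): gctgATTGGGCCACGttgg
Herpud1, CARE, chr8:94386313-94386328 (-): gggcTGATGCAAcccg
Chac1, CARE, chr2:119351045-119351060 (-): ggagTGATGCAAcggc
Trib3, CARE, chr2:152344035-152344050 (+): cggcTGATGTAAacct
Sec24d, UPRE, chr3:123267466-123267481 (+): cgccTGACGTGGcact

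The whole window of Hspa5, chr2:34771840-34772139 on the plus strand, places its exact ERSE match in context. Near matches were not searched and are not marked. The match lies 65 to 47 bases before the start of the gene and is in capitals.
Hspa5 promoter: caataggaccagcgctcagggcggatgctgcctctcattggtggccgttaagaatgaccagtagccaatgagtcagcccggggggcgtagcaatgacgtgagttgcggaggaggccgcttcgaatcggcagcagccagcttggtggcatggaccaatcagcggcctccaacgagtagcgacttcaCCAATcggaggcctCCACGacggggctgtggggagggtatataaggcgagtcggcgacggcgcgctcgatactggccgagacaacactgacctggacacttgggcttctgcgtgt

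Values are log2 array signals, so a difference of 1 is a doubling of the deposited signal (a 2-fold change). Fold changes are on this scale and were not checked against RNA amounts. Levels of different genes cannot be set against each other. In the SC+ muscles at day 1 of MOV, 22 of the 31 genes rose and 0 fell (limma with Benjamini-Hochberg adjustment over all genes, adjusted p under 0.05). Among all genes these shares were 8.7% and 9.03%. The counts at day 3 were 20 higher and 2 lower (12% and 9.52% of all genes). Day 5 gave 16 and 2 (11.4% and 7.87%), and day 7 gave 14 and 3 (10.5% and 7.59%). The median log2 fold change of the 31 genes was 1.68, 1.34, 0.87 and 0.60 at days 1, 3, 5 and 7, against -0.03, -0.06, -0.10 and -0.07 for all genes. The SC+ group with the highest mean was day 1 for 16 genes, day 3 for 7, day 5 for 6, day 7 for 1 and sham for 1. With each array left out in turn, the number that rose was 20 to 22, 17 to 20, 13 to 17 and 10 to 14.

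**Figure D1:**
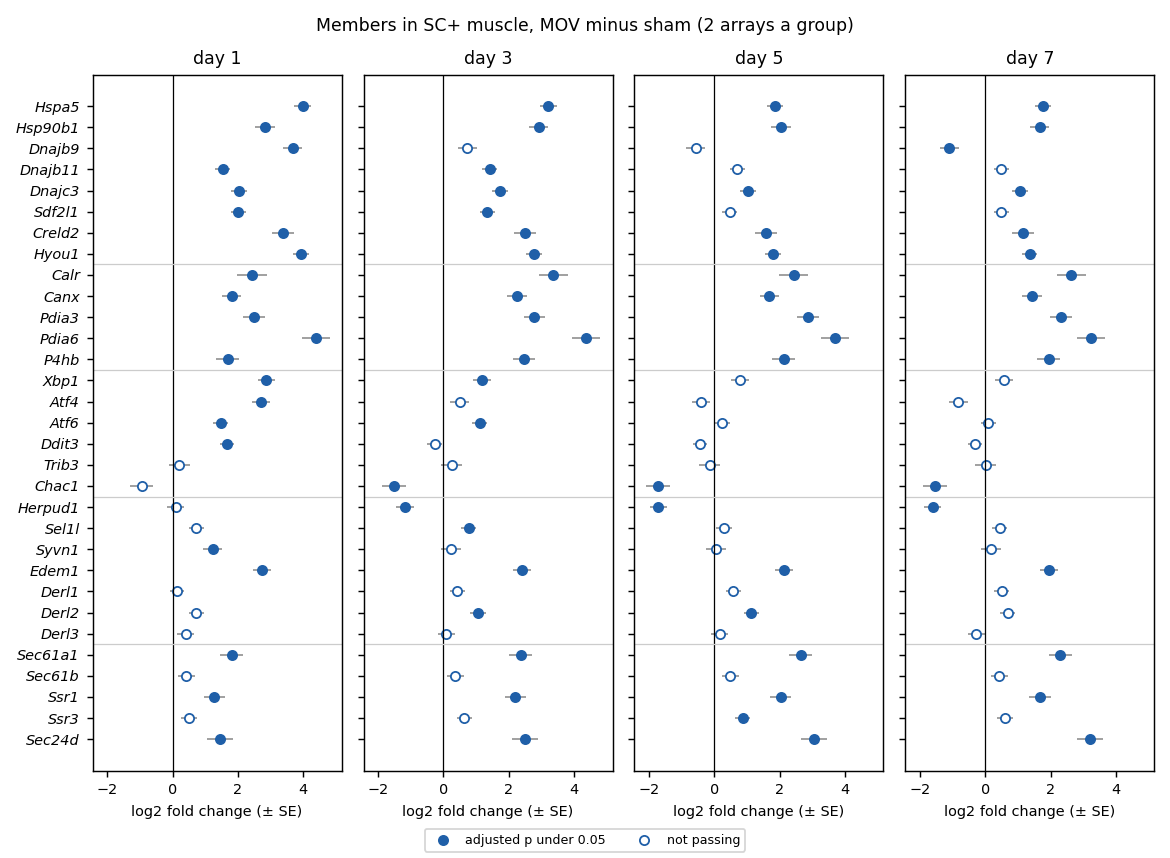
Log2 fold change of the 31 genes in SC+ muscle at days 1, 3, 5 and 7 of MOV against sham (x axis, points; bars are standard errors of the limma fit, 2 arrays a group), with genes grouped by role from top to bottom. Filled points passed an adjusted p of 0.05. At day 1, 22 points are filled and all lie right of 0, while at day 7 the filled points are 14 to the right and 3 to the left.

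Of the 8 genes of the BiP system, all rose at day 1, 7 at day 3, and 5 at days 5 and 7, with 1 lower at day 7. Hspa5 encodes BiP, the main chaperone of the compartment. Its SC+ arrays read 14.79 and 15.10 in sham, 19.02 and 18.83 at day 1, 17.86 and 18.46 at day 3, 16.85 and 16.74 at day 5, and 16.76 and 16.68 at day 7. Every MOV array lay above both sham arrays. The log2 fold change at day 1 was 3.98 ± 0.25 (SE), or 15.8-fold (adjusted p = 2.26e-06, limma), and at day 7 it was 1.77 ± 0.25 (adjusted p = 6.90e-04). At 19.02 the highest array was close to the highest value of the whole table, 19.93. Hyou1, a large relative of BiP that exchanges its nucleotide, read 9.45 and 9.55 in sham, 13.50 and 13.38 at day 1, 12.09 and 12.44 at day 3, 11.06 and 11.54 at day 5, and 10.98 and 10.73 at day 7. Its rise was 3.94 ± 0.24 at day 1 (limma adjusted p = 2.07e-06) and 1.36 ± 0.24 at day 7 (limma adjusted p = 0.00244).

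Dnajb9, also known as ERdj4, a co-chaperone of BiP that restrains IRE1, took another course. Its SC+ arrays read 12.84 and 12.68 in sham, 16.38 and 16.48 at day 1, 13.14 and 13.83 at day 3, 12.44 and 11.94 at day 5, and 11.91 and 11.39 at day 7. The day 1 arrays were the highest and the day 7 arrays the lowest, with sham in between. Its log2 fold change was 3.68 ± 0.29 at day 1, 12.8-fold (limma adjusted p = 1.09e-05), and -1.11 ± 0.29 at day 7 (limma adjusted p = 0.0198).

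The other 5 genes of the BiP system had smaller log2 fold changes at day 7 than at day 1. Hsp90b1, the HSP90 of the compartment, had 2.83, 2.91, 2.04 and 1.66 at days 1, 3, 5 and 7 (limma adjusted p = 8.07e-05, 6.91e-05, 8.59e-04 and 0.0027). Creld2, a secreted protein of endoplasmic reticulum stress, had 3.37, 2.50, 1.59 and 1.16 (limma adjusted p = 5.24e-05, 2.78e-04, 0.00611 and 0.0315). Dnajc3, also known as P58IPK, a co-chaperone, had 2.02, 1.72, 1.03 and 1.06 and passed the test at each day. Dnajb11, a co-chaperone, had 1.53, 1.42, 0.70 and 0.49. Sdf2l1, a partner of BiP and its co-chaperones, had 2.01, 1.34, 0.48 and 0.49. Both passed the test at days 1 and 3 and missed it at days 5 and 7.

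The 5 lectin chaperones and disulfide isomerases all rose at each of the 4 days, with medians of 2.43, 2.79, 2.43 and 2.31. Pdia6, an isomerase that also binds BiP and IRE1, had the largest rise of the 31 genes at each day. Its SC+ arrays read 7.64 and 9.22 in sham, 13.07 and 12.59 at day 1, 12.57 and 13.04 at day 3, 11.93 and 12.31 at day 5, and 11.37 and 11.97 at day 7. The sham arrays lay 1.57 apart, the widest gap between replicates among these genes in that group, and every MOV array was above both. The rise was 4.40 ± 0.43 at day 1, 21.1-fold (limma adjusted p = 4.76e-05), and 3.24 ± 0.43 at day 7, 9.45-fold (limma adjusted p = 5.29e-04).

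Calr encodes calreticulin, a lectin that also binds calcium. Its SC+ arrays read 13.47 and 13.93 in sham, 16.72 and 15.55 at day 1, 16.65 and 17.47 at day 3, 16.16 and 16.10 at day 5, and 15.73 and 16.94 at day 7. Replicates at days 1 and 7 were over 1 log2 unit apart, but every MOV array was above sham. Its rise was 3.36 ± 0.45 at day 3 (limma adjusted p = 2.65e-04) and 2.63 ± 0.45 at day 7 (limma adjusted p = 0.00188). Pdia3, the isomerase that works with calreticulin and calnexin, read 9.89 and 10.95 in sham, 13.06 and 12.74 at day 1, 12.94 and 13.46 at day 3, 13.10 and 13.45 at day 5, and 12.58 and 12.87 at day 7. Its rise was 2.86 ± 0.33 at day 5, 7.26-fold (limma adjusted p = 3.43e-04). Canx, calnexin, had 1.81, 2.25, 1.69 and 1.42, and P4hb, an isomerase that is also a subunit of the collagen prolyl hydroxylase, had 1.68, 2.47, 2.13 and 1.94.

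**Figure D2:**
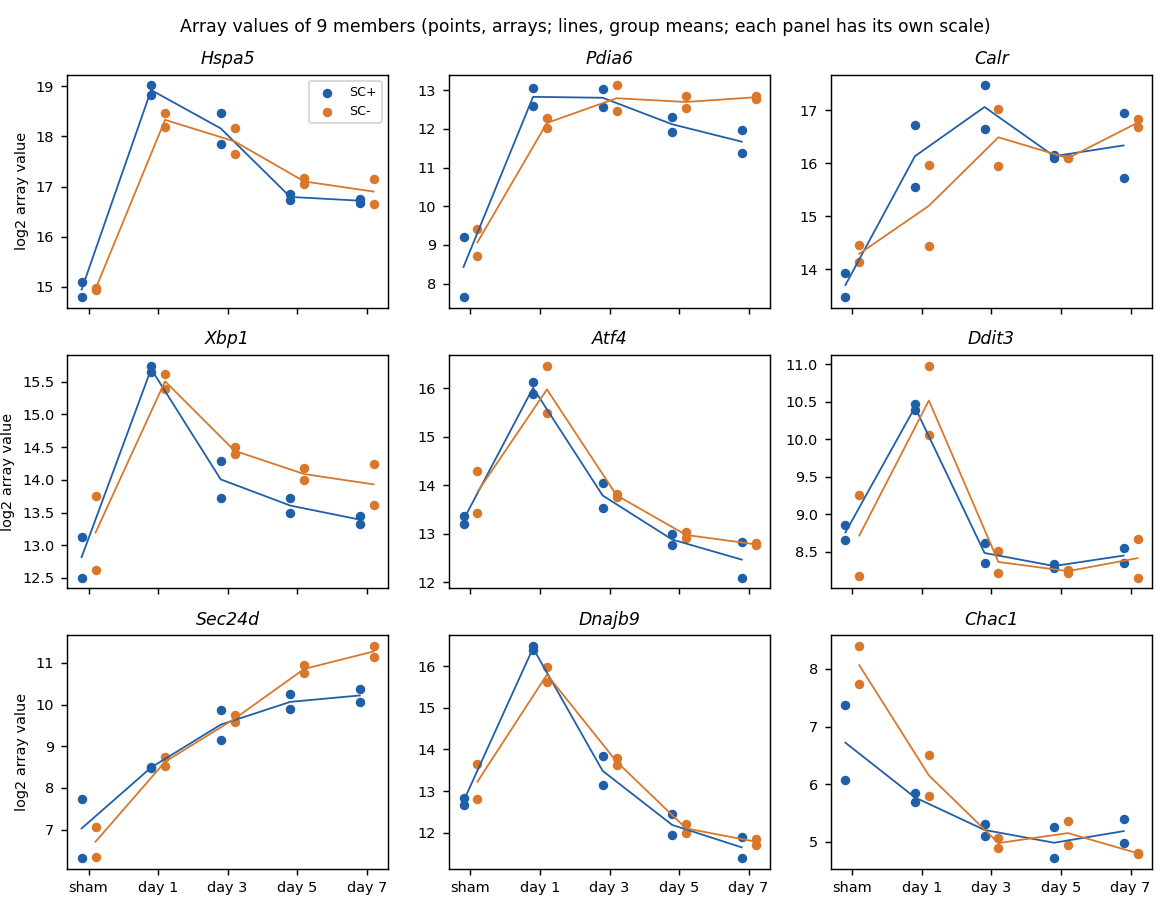
Log2 array values (y axis, a separate scale in each panel) of 9 genes in sham and at days 1, 3, 5 and 7 of MOV (x axis), with 1 point an array, blue for SC+ and orange for SC-, and lines through the group means. Hspa5, Xbp1, Atf4, Ddit3 and Dnajb9 are highest at day 1, while the group means of Sec24d climb to day 7 and those of Chac1 lie below sham.

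The 4 transcription factors rose at day 1, and none of them passed the test at day 5 or day 7. Xbp1, whose mRNA IRE1 splices into its active form, read 12.50 and 13.13 in sham, 15.75 and 15.64 at day 1, 13.73 and 14.29 at day 3, 13.72 and 13.49 at day 5, and 13.45 and 13.33 at day 7. Both day 1 arrays were above all others, and days 5 and 7 lay above sham by less. The log2 fold change was 2.87 ± 0.27 at day 1 (limma adjusted p = 3.63e-05), 1.19 ± 0.27 at day 3 (limma adjusted p = 0.00724) and 0.79 and 0.57 at days 5 and 7, which missed the threshold. These probe sets do not tell the spliced mRNA from the unspliced one.

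Atf4, the factor that PERK and the other eIF2α kinases raise by translation, read 13.21 and 13.37 in sham, 15.88 and 16.13 at day 1, 13.53 and 14.05 at day 3, 13.00 and 12.77 at day 5, and 12.84 and 12.10 at day 7. Its log2 fold change was 2.71 ± 0.28 at day 1 (limma adjusted p = 7.40e-05), and 0.50, -0.41 and -0.82 later, none of which was called. Atf6, the sensor that is cut to give a transcription factor, read 11.84 and 11.70 in sham, 13.05 and 13.43 at day 1, 12.84 and 12.93 at day 3, 12.16 and 11.85 at day 5, and 11.98 and 11.74 at day 7. It rose by 1.47 ± 0.23 at day 1 (limma adjusted p = 0.00112) and 1.11 ± 0.23 at day 3 (limma adjusted p = 0.00423). The group means at days 5 and 7 were within 0.24 of the sham mean. Ddit3 encodes CHOP, a factor downstream of ATF4 that is linked to cell death. It read 8.86 and 8.65 in sham, 10.47 and 10.38 at day 1, 8.36 and 8.61 at day 3, 8.33 and 8.29 at day 5, and 8.55 and 8.35 at day 7. Only the day 1 arrays were above sham, by 1.67 ± 0.21 (limma adjusted p = 2.96e-04). A second probe set of Ddit3 with lower signal went the same way, from 8.09 in SC+ sham to 8.96 at day 1.

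Chac1 and Trib3, which ATF4 and CHOP induce in other cells, did not follow. Chac1, a glutathione-degrading enzyme, read 6.07 and 7.37 in sham, 5.70 and 5.84 at day 1, 5.31 and 5.11 at day 3, 5.25 and 4.72 at day 5, and 5.40 and 4.98 at day 7. All MOV arrays lay below both sham arrays, and the log2 fold change was -1.51 ± 0.37, -1.73 ± 0.37 and -1.53 ± 0.37 at days 3, 5 and 7 (limma adjusted p = 0.0104, 0.00611 and 0.0128). The size rested on sham replicate 2, the higher one. Without it the values were -0.86, -1.08 and -0.88, and of these day 5 alone was called. The SC+ MOV arrays of Chac1 were below 6, where the signal is low. Trib3, a pseudokinase that dampens this branch, stayed between 4.72 and 5.91 in SC+, below 6 throughout, with log2 fold changes of 0.21, 0.25, -0.14 and 0.01 and no call.

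The 7 genes of endoplasmic reticulum associated degradation (ERAD), the route by which misfolded proteins are sent back to the cytosol, were mixed. 2 rose at day 1, 3 at day 3, 2 at day 5 and 1 at day 7, and 1 fell at each of days 3, 5 and 7. The gene that fell was Herpud1, a scaffold of the ubiquitin ligase complex, which read 13.50 and 13.74 in sham, 13.83 and 13.63 at day 1, 12.45 and 12.44 at day 3, 11.83 and 11.98 at day 5, and 12.39 and 11.64 at day 7. The day 1 arrays overlapped the sham arrays and all later arrays lay below them. Its log2 fold change was 0.10 ± 0.26 at day 1, and -1.18 ± 0.26, -1.72 ± 0.26 and -1.61 ± 0.26 at days 3, 5 and 7 (limma adjusted p = 0.0063, 0.00102 and 0.00152).

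Edem1, a lectin-like protein that picks out misfolded glycoproteins, went the other way, with 2.75, 2.40, 2.12 and 1.95 (limma adjusted p = 6.10e-05, 1.31e-04, 5.58e-04 and 7.79e-04). Its SC+ arrays were 7.75 and 8.52 in sham and between 9.97 and 11.01 under MOV. Syvn1, the ubiquitin ligase HRD1, passed the test at day 1 alone (1.23), and its partner Sel1l at day 3 alone (0.77). Derl2, of the channel, passed at days 3 and 5 (1.05 and 1.13). Derl1 lay between 0.14 and 0.58 and Derl3, whose signal was below 6, between -0.27 and 0.40, with no call.

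Of the 5 genes of entry into and exit from the compartment, 3 rose at days 1, 3 and 7 and 4 at day 5. Sec24d, a cargo-binding subunit of the COPII coat that exports collagen among others, read 6.31 and 7.74 in sham, 8.51 and 8.47 at day 1, 9.16 and 9.88 at day 3, 9.89 and 10.24 at day 5, and 10.06 and 10.38 at day 7. The group mean was higher at each later day, and every MOV array was above both sham arrays. Its rise was 1.46 ± 0.40 at day 1 (limma adjusted p = 0.024), 2.49 ± 0.40 at day 3, 3.04 ± 0.40 at day 5 and 3.19 ± 0.40, or 9.14-fold, at day 7 (limma adjusted p = 4.14e-04). Sec61a1, the pore of the translocon, had 1.81, 2.36, 2.65 and 2.30, and Ssr1, a subunit of the translocon-associated complex, 1.28, 2.20, 2.03 and 1.68, all called. Ssr3, of the same complex, was called at day 5 (0.87), and Sec61b at no day, with 0.42, 0.36, 0.49 and 0.43.

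Of the 79 SC+ calls over the 4 days (72 rises and 7 falls), 61 were kept whichever array was left out and 18 were lost without some 1 array. Sham replicate 1 was the array that ended the most calls. Without it the calls of Sec24d (0.75) and Ssr1 (0.80) at day 1, of Xbp1 (0.87) and Derl2 (0.86) at day 3, of Dnajc3 (0.80), Derl2 (0.94) and Ssr3 (0.72) at day 5, and of Dnajb9 (-1.03), Dnajc3 (0.83), Creld2 (1.08) and Canx (1.01) at day 7 were lost. Without sham replicate 2, those of Syvn1 at day 1 (1.00), of Sel1l at day 3 (0.56) and of Chac1 at days 3 and 7 were lost. Leaving out an array of the MOV group itself also ended calls of the same genes, such as Xbp1 without day 3 replicate 2 (0.91), Chac1 without replicate 2 of each of days 3, 5 and 7 (-1.41, -1.47 and -1.32), Ssr1 without day 7 replicate 2 (1.55) and Creld2 without day 5 replicate 2 (1.32). The calls against sham of Hspa5, Hsp90b1, Hyou1, Calr, Pdia3, Pdia6, P4hb, Edem1 and Sec61a1 were kept at every day they were made.

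From day 1 to day 3 in SC+, 6 of the 31 genes fell and 0 rose, where 2.77% of all genes fell and 4.39% rose (limma, adjusted p under 0.05). They were Dnajb9 (-2.95), Atf4 (-2.21), Ddit3 (-1.94), Xbp1 (-1.69), Herpud1 (-1.28) and Hyou1 (-1.18). 3 of them are transcription factors. Without day 3 replicate 1, 3 genes passed. From day 3 to day 5, limma called 0 of the 31 genes in either direction, and 0.21% of all genes as higher and 0.0359% as lower. From day 5 to day 7 it again called 0 of the 31, and 0% and 0% of all genes. At an unadjusted p under 0.05, 13, 10 and 0 of the 31 genes passed over the 3 steps, where 21.1%, 10.8% and 5.7% of all genes did. Hspa5 had -1.37 ± 0.25 from day 3 to day 5 (limma adjusted p = 0.0538). These steps share arrays with each other and with the contrasts against sham.

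By promoter, 8 of the 9 genes with an ERSE match rose at SC+ day 1, with a median log2 fold change of 2.43, and 11 of the 18 without one, with a median of 1.5. The exception was Derl3. Of the 3 genes with a CARE match, Herpud1, Trib3 and Chac1, 0 rose at day 1, and their median was 0.10, the value of Herpud1. Trib3 and Chac1, like Derl3, had means under 6, where the signal is low. Sec24d, with the UPRE match, had 1.46 at day 1, and the genes with ERSE-II were Dnajb11 at 1.53 and Herpud1 at 0.10. Hyou1, Atf6, Derl1 and Sec61a1 had no window in the table.

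A further 110 genes of the same pathway were listed, of which 105 were measured. In SC+, 32, 49, 49 and 42 of them rose at days 1, 3, 5 and 7 and 5, 8, 6 and 6 fell, with medians of 0.39, 0.64, 0.69 and 0.58. Of all genes, 8.7%, 12%, 11.4% and 10.5% rose and 9.03%, 9.52%, 7.87% and 7.59% fell at these days, and the counts of the lists below are to be read beside these shares. Without sham replicate 1 the number that rose was 19 at day 1, 30 at day 5 and 23 at day 7. It was 18 without day 1 replicate 1, 28 without day 5 replicate 2 and 22 without day 7 replicate 2. Of the sensors, Ern1, which encodes IRE1, was called at days 1 and 3 (0.77 and 0.99), and Atf6b, a relative of Atf6, at all 4 days (1.40, 1.43, 0.93 and 0.69). Mbtps1, the protease that cuts ATF6, was called at days 5 and 7 (1.06 and 1.05). Eif2ak3, which encodes PERK, had -0.07, 0.13, 0.14 and -0.05 and no call.

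Of 12 genes of the integrated stress response, 6, 4, 3 and 3 rose and 0, 2, 2 and 2 fell at days 1, 3, 5 and 7. Atf3, a stress-induced factor, had the largest change of all listed genes, 7.07 ± 0.53 at day 1 (limma adjusted p = 7.65e-06), with 2.80, 1.91 and 1.86 later. Psat1, an enzyme of serine synthesis, had 2.84, 2.68, 1.86 and 1.64. Vldlr, a lipoprotein receptor, had -0.28, -2.80, -2.49 and -2.49, called as lower from day 3.

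Of 23 other chaperones and oxidative folding enzymes, 5, 15, 17 and 15 rose and 1, 0, 0 and 0 fell. 9 of them rose between day 1 and day 3, where 4.39% of all genes rose. Ero1a, the oxidase that recharges disulfide isomerases, had 5.54, 4.37, 1.33 and 0.66 (limma adjusted p = 1.53e-06, 2.08e-05, 0.00998 and 0.173), highest at day 1 like Hspa5. Serpinh1, the collagen chaperone HSP47, had 0.70, 2.93, 3.56 and 3.63, and Fkbp7, a prolyl isomerase, -1.15, 1.92, 3.11 and 3.43, both called from day 3 on.

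Of 18 genes of COPII export and KDEL retrieval, 4, 8, 8 and 8 rose and 1, 2, 2 and 2 fell. Kdelr3 and Kdelr2, receptors that return chaperones from the Golgi, had -0.12, 2.24, 3.33 and 3.37 and 1.35, 2.61, 2.84 and 2.81. Sar1b, the GTPase that starts the COPII coat, had -2.11, -3.07, -1.91 and -1.91, lower at each day. Of 8 subunits of the oligosaccharyltransferase, which adds sugar chains, 4, 6, 5 and 4 rose and 0 fell, led by Ostc (1.99, 2.67, 2.69 and 2.40), Stt3a (1.54, 2.20, 2.21 and 2.21) and Ddost (1.45, 2.09, 1.87 and 1.66). Of 15 translocon and signal peptidase genes, 6, 7, 8 and 7 rose and 1, 2, 2 and 2 fell. Those that rose include Tram1 (1.98, 2.55, 2.20 and 2.24), Ssr2 (1.69, 2.16, 2.31 and 2.13) and Spcs3 (2.19, 1.88, 0.95 and 0.50).

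Of 17 other ERAD genes, 4, 4, 3 and 1 rose and 1, 1, 0 and 0 fell, so that at day 7 the count was no more than the share of all genes would give. Os9, a lectin of the ligase complex, had 0.63, 1.51, 1.78 and 1.71, Selenos, a selenoprotein of the channel, 1.42, 0.99, 0.83 and 0.77, and Edem2 1.27, 1.37, 1.02 and 0.58. Of 8 genes listed for the calnexin cycle and glycan trimming, 1, 3, 3 and 2 rose and 1, 1, 0 and 0 fell. At day 1 this is near the shares of all genes. The subunits of glucosidase II had 0.52, 1.31, 1.35 and 0.96 (Prkcsh) and 0.06, 1.07, 1.07 and 1.33 (Ganab). Ubxn4, listed with them although it is an ERAD protein, had 2.03, 1.31, 0.83 and 0.61.

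**Figure D3:**
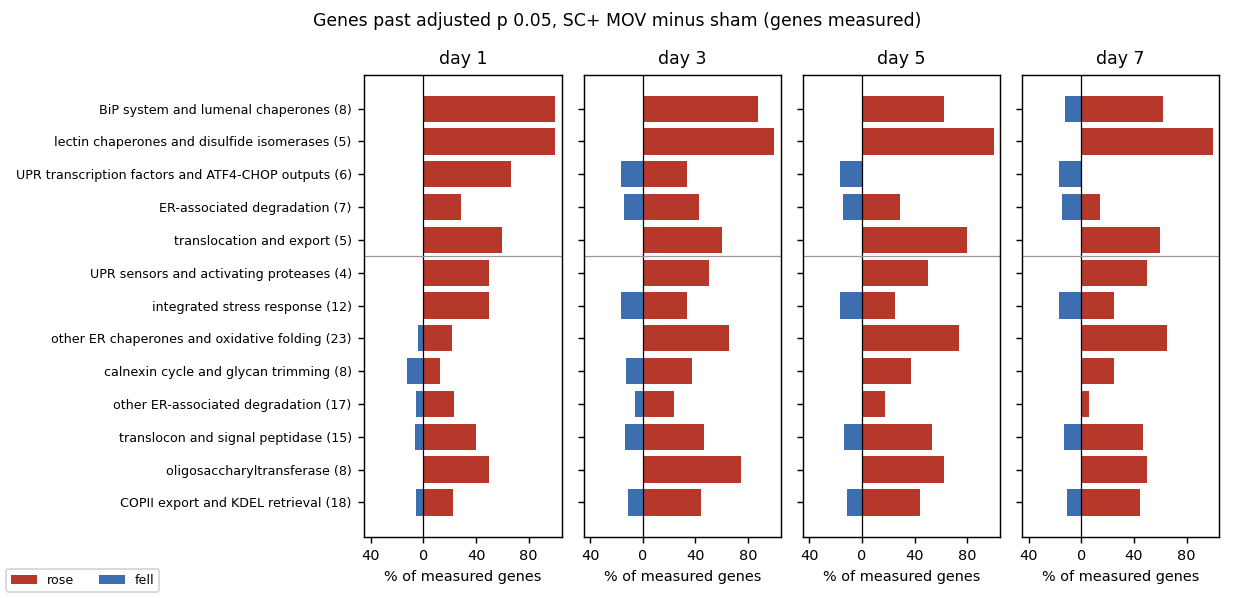
Share of measured genes (x axis, %) that rose (red, to the right of 0) or fell (blue, to the left) in SC+ muscle at days 1, 3, 5 and 7 of MOV against sham, by limma at an adjusted p of 0.05, for the 5 roles of the 31 genes (above the grey line) and 8 further lists of the pathway, with the number measured in parentheses. The lectin and isomerase genes rose at all 4 days, while of the group with the transcription factors none rose at days 5 and 7.

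RNA came from whole muscle, so a change in the number of cells of a type and a change in RNA per cell cannot be told apart, and marker genes of other cell types moved over the same days. In SC+, the mean log2 level of 5 neutrophil markers was 5.52 and 6.89 in the sham arrays and 12.27 and 12.18 at day 1. That of 9 macrophage markers was 7.40 and 9.35 in sham and 11.94 and 12.23 at day 3. That of 9 fibroblast markers was 10.75 and 13.58 in sham, 10.82 and 10.61 at day 1 and 15.89 and 16.06 at day 7. The SC+ sham arrays thus stood apart from each other, with replicate 2 higher in all 3 lists and in the 9 satellite cell and myoblast markers (5.70 and 6.78), and so did the SC- day 1 arrays in fibroblast markers (10.73 and 13.59). The number of markers that rose at day 1 and day 7 was 5 and 1 of 5 for neutrophils, 3 and 8 of 9 for macrophages, and 0 and 9 of 9 for fibroblasts, with 4 fibroblast and 1 macrophage marker lower at day 1. The macrophage count at day 7 was 0 without day 7 replicate 2 and 3 without sham replicate 1, and 9 fibroblast markers were lower at day 1 without sham replicate 1. All 7 plasma and B cell markers, of cells rich in this compartment, were below 6 in every group. The 12 myofibre markers averaged between 17.55 and 19.17 in every array, and 4, 6, 5 and 3 fell. The part of these cells in the changes above was not tested.

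**Figure D4:**
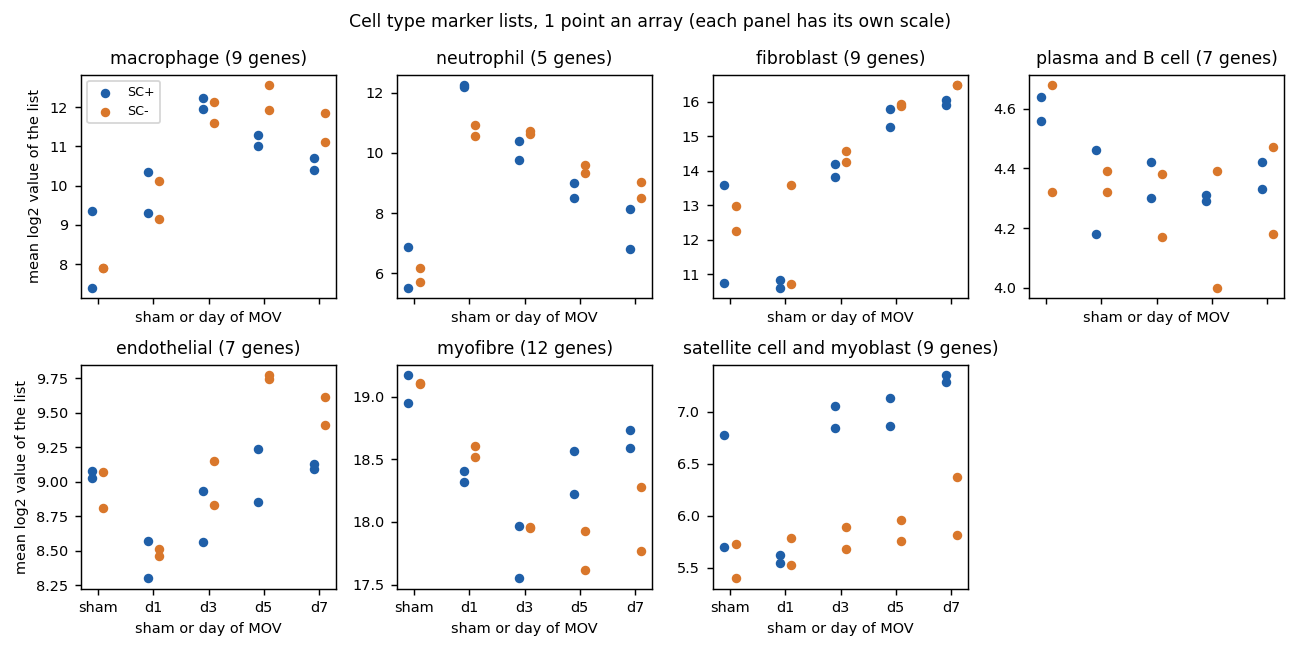
Mean log2 value (y axis, a separate scale in each panel) of the marker genes of 7 cell types in each array (points; blue SC+, orange SC-), in sham and at days 1, 3, 5 and 7 of MOV (x axis). Neutrophil markers are highest at day 1, macrophage markers are high from day 3, fibroblast markers are highest at day 7, and the satellite cell and myoblast markers of SC- stay below those of SC+ from day 3.

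In the SC- muscles the same genes were compared with their own sham (limma, adjusted p under 0.05). Of the 31, 21 rose and 1 fell at day 1, where 6.8% and 7.62% of all genes did so. At day 3, 19 rose and 2 fell (11.7% and 9.57%), at day 5, 19 and 3 (14.9% and 13%), and at day 7, 18 and 4 (15% and 13.6%). The medians were 1.37, 1.25, 0.94 and 0.83. The highest group mean was at day 1 for 11 genes and at day 7 for 11, with 5 at day 3, 2 at day 5 and 2 in sham. With each array left out, 15 to 22, 14 to 20, 14 to 20 and 15 to 18 rose.

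Hspa5 in SC- read 14.94 and 14.97 in sham, 18.47 and 18.19 at day 1, 18.16 and 17.64 at day 3, 17.04 and 17.16 at day 5, and 17.15 and 16.65 at day 7. As in SC+, day 1 was highest, with a rise of 3.37 ± 0.26 (limma adjusted p = 1.15e-07). Pdia6 read 8.72 and 9.41 in sham, 12.29 and 12.02 at day 1, 13.13 and 12.45 at day 3, 12.85 and 12.54 at day 5, and 12.78 and 12.85 at day 7, so that its arrays from day 3 on lay between 12.45 and 13.13. Sec24d read 7.06 and 6.35 in sham, 8.52 and 8.73 at day 1, 9.74 and 9.58 at day 3, 10.76 and 10.95 at day 5, and 11.41 and 11.14 at day 7, a rise of 4.57 ± 0.36 at day 7, 23.7-fold (limma adjusted p = 1.45e-07). Chac1 read 7.73 and 8.40 in sham, 5.80 and 6.50 at day 1, 5.07 and 4.89 at day 3, 5.36 and 4.95 at day 5, and 4.81 and 4.80 at day 7, a fall at each day, with -3.26 at day 7 (limma adjusted p = 1.73e-06). Of the factors, Xbp1 had 2.31, 1.25, 0.90 and 0.74, Atf4 2.11, -0.07, -0.89 and -1.08, Atf6 1.25, 0.87, 0.07 and -0.12 and Ddit3 1.80, -0.35, -0.48 and -0.30. All 4 were called as higher at day 1, Xbp1 also at days 3 and 5, and Atf6 also at day 3. Atf4 was called as lower at day 7. Without SC- sham replicate 2 its day 7 value was -0.64. Xbp1 at day 5 was at 0.33 without SC- sham replicate 1 and at 1.46 without SC- sham replicate 2. The other falls were of Chac1 at each day, of Herpud1 from day 3 and of Dnajb9 from day 5.

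The arms were then compared at each time point, which asks how the pathway differs where satellite cells are depleted. The study's methods use an unadjusted p under 0.05 here. After adjustment over all genes by Benjamini-Hochberg, limma called 0 of the 31 genes at any time point. In sham, 1 gene was higher in SC- and 0 lower at the unadjusted threshold, near the shares of all genes (2.55% and 3.02%). This was Chac1, at 7.73 and 8.40 in SC- and 6.07 and 7.37 in SC+, a difference of 1.34 ± 0.36 (unadjusted p = 0.00139, adjusted p = 0.668, limma). Without SC+ sham replicate 1 its difference was 0.69 and not past the threshold, 0 genes were higher, and 3 were lower, namely Hsp90b1 (-0.81), Pdia3 (-0.74) and Sec24d (-1.03). Without SC- sham replicate 1, 5 were higher, and without SC+ sham replicate 2, 3 were.

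At day 1, 7 genes were lower in SC- and 0 higher (3.05% and 2.94% of all genes). 6 of the 7 belong to the BiP system and the seventh was Sel1l (-0.57). Hyou1 read 12.99 and 12.25 in SC- and 13.50 and 13.38 in SC+, a difference of -0.82 ± 0.30 (95% interval -1.45 to -0.19, unadjusted p = 0.0133, adjusted p = 0.736, limma). Hsp90b1 read 16.90 and 16.62 against 17.51 and 17.28 (-0.63 ± 0.27, limma unadjusted p = 0.0312). Hspa5 read 18.47 and 18.19 against 19.02 and 18.83 (-0.59 ± 0.26, limma unadjusted p = 0.0323). In all 7 both SC- arrays were below both SC+ arrays. These 7 were picked by that same difference, so the separation is no further evidence, and its share among all genes is not given. The others were Dnajb9 (-0.64), Dnajb11 (-0.61) and Sdf2l1 (-0.63). The count rested on single arrays, with 1 gene left without SC+ day 1 replicate 1 and 0 without SC- day 1 replicate 2, where Hyou1 was at -0.45, Dnajb11 at -0.25 and Sel1l at -0.26. All 5 neutrophil markers were also lower in SC- at day 1 (2 without SC- day 1 replicate 2 or SC+ day 1 replicate 2), and 4 of 9 fibroblast markers higher (0 without SC- day 1 replicate 2).

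At day 3, 1 gene was lower and 0 higher (2.66% and 2.79%), again Hyou1, at 11.92 and 11.29 in SC- and 12.09 and 12.44 in SC+ (-0.66 ± 0.30, limma unadjusted p = 0.0415). It was no longer past the threshold without SC- day 3 replicate 2 (-0.34) or SC+ day 3 replicate 2 (-0.48). At day 5, 1 gene was higher and 0 lower (4.47% and 4.73%). This was Sec24d, at 10.76 and 10.95 in SC- and 9.89 and 10.24 in SC+ (0.79 ± 0.36, limma unadjusted p = 0.0418). Sec24d was no longer past the threshold without SC- day 5 replicate 1 (0.89), SC- day 5 replicate 2 (0.69) or SC+ day 5 replicate 1 (0.61). The counts at days 3 and 5 were near the shares of all genes.

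At day 7, 11 genes were higher in SC- and 0 lower, where 6.2% and 5.91% of all genes were. They were 3 disulfide isomerases, 4 genes of entry and export, 2 of the BiP system and 2 of ERAD. Pdia3 read 14.22 and 14.21 in SC- and 12.58 and 12.87 in SC+, a difference of 1.49 ± 0.33 (95% interval 0.79 to 2.18, unadjusted p = 2.71e-04, adjusted p = 0.0592, limma). Sec61a1 read 15.21 and 15.09 against 13.66 and 14.07 (1.28 ± 0.33, limma unadjusted p = 9.73e-04). Ssr1 read 15.10 and 15.07 against 13.96 and 14.22 (1.00 ± 0.29, limma unadjusted p = 0.00266). In each of the 11 both SC- arrays were above both SC+ arrays. These 11 were picked by that same difference, so the separation is no further evidence, and its share among all genes is not given. The others were Pdia6 (1.15), P4hb (1.11), Sec24d (1.06), Hsp90b1 (0.67), Edem1 (0.70), Creld2 (0.70), Ssr3 (0.57) and Derl2 (0.52). Hspa5 was not among them, with 0.18 (95% interval -0.36 to 0.72), nor was any of the 4 factors. Without SC+ day 7 replicate 1 the count was 3, with P4hb at 0.68, and without SC- day 7 replicate 1 it was 7, with Edem1 at 0.39 and Derl2 at 0.32.

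Of the other 105 pathway genes, 33 were higher and 2 lower in SC- at day 7 (13 higher without SC+ day 7 replicate 1, 16 without SC- day 7 replicate 1), 0 of them after adjustment. Cell type markers differed there as well. Of the markers, 4 of 5 for neutrophils, 2 of 9 for macrophages and 1 of 9 for fibroblasts were higher in SC-, and 6 of 12 for myofibres (2 without SC- day 7 replicate 1) and 5 of 9 for satellite cells and myoblasts were lower. The satellite cell and myoblast list averaged 6.37 and 5.82 in SC- at day 7 and 7.35 and 7.29 in SC+. Pax7 itself lay between 3.77 and 5.22 in all arrays, in the range of low signal. The part of these cells in the differences was not tested.

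**Figure D5:**
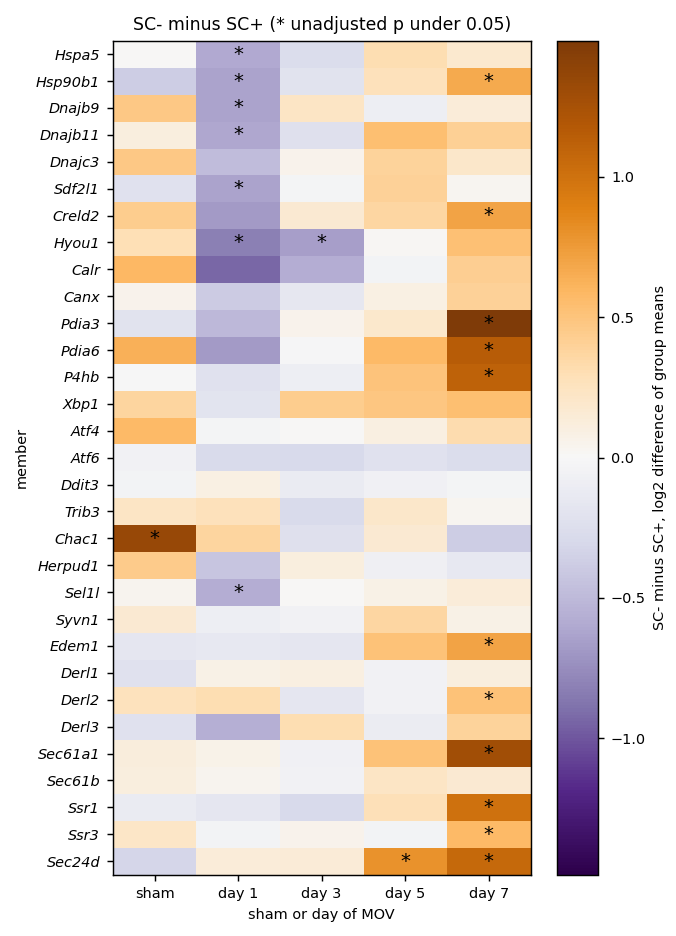
Difference SC- minus SC+ of the group means (colour, log2 units; orange higher and purple lower in SC-) for the 31 genes (rows) in sham and at days 1, 3, 5 and 7 of MOV (columns, 2 arrays a group in each arm). Asterisks mark an unadjusted p under 0.05 by limma. 7 purple cells carry one at day 1 and 11 orange cells at day 7.

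The difference between the responses was tested as well, as the SC- change from sham minus the SC+ change from sham. Limma called 0 of the 31 genes after adjustment. At an unadjusted p under 0.05, this difference was above 0 for 0 genes and below 0 for 6 at day 1, where it was so for 2.42% and 2.51% of all genes. At day 3 it was above 0 for 0 and below 0 for 2 (2.08% and 2.12%). At day 5 the counts were 1 and 1 (3.9% and 3.91%). At day 7 they were 6 and 1 (4.46% and 4.82%). Pdia3 at day 7 had the smallest p, with 1.69 ± 0.47 (unadjusted p = 0.00192, adjusted p = 0.293, limma). The day 7 count above 0 was 1 without SC+ sham replicate 2 and 3 without SC+ day 7 replicate 1. The day 1 count below 0 ranged from 1 without SC- sham replicate 2 to 10 without SC- sham replicate 1.

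Over all time points together, an additive model gave 0 calls for the 31 genes after adjustment. At an unadjusted p under 0.05, 2 differed between the arms, no more than the share of all genes (8.71%) would give. Both were higher in SC-, Xbp1 by 0.33 ± 0.14 (unadjusted p = 0.0325) and Sec61a1 by 0.38 ± 0.17 (unadjusted p = 0.035, limma).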

How the data were processed

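The values were log2 signals that the authors deposited after robust multi-array averaging (RMA), 1 value per probe set and array, in a table of 28846 rows. The probe set definition and the version of the software are not given in the sources used here, and the probe set names differ in style from those of the array that the methods name. Of these rows, 19572 were paired with 1 gene symbol in the platform annotation, 55 genes had several, and the probe set with the highest mean was kept, which left 19505 genes. Array medians lay between 6.5 and 6.57 and values between 2.22 and 19.93. Fold changes are on this deposited scale, and whether the signals were rescaled after RMA was not settled. There are no counts, so precision is limited by 2 arrays a group.

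Group means were fitted with limma 3.58.1 in R 4.3.3, the SC+ contrasts on the 10 SC+ arrays and all others on the 20 arrays, with Benjamini-Hochberg adjustment over all genes. The fit was tested on simulated data. Each array held a pool of 2 or 3 mice, which the group sizes in the methods allow to be separate mice, so p-values measure the spread between pools and not between single mice. Replicate numbers did not pair the samples (correlations of replicate deviations -0.155 to 0.216 over 45 pairs of groups). Genes with full array values were the 3 largest rises and falls of each SC+ day, Xbp1, Atf4, Atf6 and Ddit3, and the 3 smallest p-values of each SC- to SC+ comparison with any gene past the threshold. Of each other list, up to 3 genes with the largest change are named. The array values of Edem1, Eif2ak3 and other genes mentioned outside this rule were picked with their values known. The 31 genes and all lists were chosen with earlier results of these data known. Alternatives were another normalization, a filter on low means, all rows, the mean of probe sets, a trended prior, a replicate block, other sets of arrays in the fit, and each array left out, the last added for the further lists after the data were seen. Motifs were searched in RefSeq promoter windows of GRCm38.p6.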

Additional observations from a re-analysis of the deposited data

Results flagged for a closer look

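For 17 results the response to MOV differed between SC- and SC+ by the limma test of the difference itself at an unadjusted p under 0.05, and none of them at an adjusted p under 0.05 (lowest adjusted p = 0.293). Values are the SC- log2 fold change minus the SC+ log2 fold change. Among all genes this difference was above 0 at that threshold for 2.42%, 2.08%, 3.9% and 4.46% at days 1, 3, 5 and 7. It was below 0 for 2.51%, 2.12%, 3.91% and 4.82%. The counts on both sides at day 5, and below 0 at day 7, were no more than these shares would give. At day 1 the difference was -1.53 for Calr, -1.31 for Pdia6, -1.12 for Hyou1, -1.11 for Creld2, -1.11 for Dnajb9 and -0.95 for Dnajc3, all smaller rises in SC-. These sizes rest on single arrays. Without SC- day 1 replicate 2, Calr was at -0.76, Hyou1 at -0.74 and Creld2 at -0.67, without SC+ day 1 replicate 1 Calr was at -0.94, without SC- sham replicate 2 Dnajb9 was at -0.68, and none of these passed. Pdia6 was at -0.52, not past the threshold, without SC+ sham replicate 1 and at -2.10 without replicate 2. At day 3 it was -1.57 for Chac1, a larger fall, and -0.95 for Hyou1. At day 5 it was -1.18 for Chac1 and 1.11 for Sec24d. At day 7 it was 1.69 for Pdia3, 1.38 for Sec24d, 1.16 for Sec61a1, 1.12 for Ssr1, 1.12 for P4hb and 1.05 for Hsp90b1, all larger rises in SC-, and -1.73 for Chac1. Without SC+ sham replicate 2, 5 of these day 7 rises did not pass (Sec24d 0.66, Sec61a1 0.68, Ssr1 0.63, P4hb 0.58 and Hsp90b1 0.62), nor did Sec24d at day 5 (0.40), and P4hb was at 0.69 without SC+ day 7 replicate 1. Without SC+ sham replicate 1, Sec24d was at 1.82 and 2.09 at days 5 and 7. The 3 differences of Chac1 share the sham arrays, in which Chac1 was 1.34 higher in SC-, or 0.69 without SC+ sham replicate 1. Without that array they were -0.92, -0.52 and -1.07, of which the last alone passed, and without SC+ sham replicate 2 the day 5 one was -1.83. Single samples far from their group were not looked for, since each group held 2 arrays.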

How the results depend on the processing

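No called value of the 31 genes turned its direction under any alternative run. Leaving out each array, the SC+ count that fell was 0 to 1, 1 to 2, 1 to 2 and 1 to 4 at days 1, 3, 5 and 7. From day 1 to day 3, 0 to 1 rose and 3 to 7 fell, and from day 3 to day 5, 0 to 2 fell. The SC- count that fell was 1 to 2, 1 to 2, 2 to 5 and 3 to 4. SC- against SC+ gave 0 to 5 higher and 0 to 3 lower in sham, 0 to 9 lower at day 1, 0 to 1 lower at day 3, 0 to 2 higher at day 5 and 3 to 11 higher at day 7. The response difference was above 0 for 0 to 1 and below 0 for 1 to 10 genes at day 1, for 0 to 1 and 0 to 3 at day 3, for 0 to 5 and 0 to 3 at day 5, and for 1 to 8 and 1 to 2 at day 7. Without the genes whose mean was under 6, which removes Chac1, Trib3 and Derl3, the falls were 1 at SC+ days 3 and 5, 0 at SC- day 1 and 1 at SC- day 3, the sham count was 0 higher, and the response difference was below 0 for 1 at day 3, 0 at day 5 and 0 at day 7. With arrays centred on their medians, 4 genes were lower in SC- at day 1, and with all rows tested 3 were. With all rows tested there were also 0 lower at day 3 and 0 higher at day 5, and 0 response differences above 0 at day 5, as after another quantile normalization. From day 3 to day 5, 1 gene (Hspa5) fell with medians centred, with a trended and robust prior, or in a fit on all 20 arrays. For these changes other than the filter, the cause was not tested. With the replicate block, the counts in SC+ were 23, 20, 16 and 14 risen, SC- against SC+ gave 5 lower at day 1 and 9 higher at day 7, and no count moved by over 1.5 times. The numbers did not pair the samples by the check.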
